A study of Mus musculus with 96 samples.

Results

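The neuropeptide Y family is described here by 4 genes measured in islets, *Npy*, *Pyy*, *Ppy* and *Npy1r*, out of 21990 genes in the deposited table, of which 20155 have values. The genes were chosen by symbol, and *Npy* was selected on its repeated fall on high-fat diet (HFD) in these same libraries, so its difference between diets is given as a description without a test. C57BL/6N male mice, bought at 4 weeks of age, were fed HFD, the Research Diets product D12492 with 60% fat, or a chow diet (CD), which was LabDiet 5001 with 13.5% fat. Islets and liver were taken from the same 48 mice, 4 per diet at each of weeks 4, 8, 12, 16, 20 and 24 of feeding, which gave 96 libraries. The labels name no transgene and no drug in any group. The chow is a different product from HFD and not its ingredient-matched control, so fat content and the other ingredients cannot be told apart. Mice after more weeks on diet were also older, and age and time on diet cannot be told apart within a diet.

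Neuropeptide Y (NPY), peptide YY (PYY) and pancreatic polypeptide (PP) are peptides of one family, cut from longer precursors and usually amidated at their C-terminal end. They act on Y receptors, which couple to inhibitory G proteins (Gi/Go) and lower cAMP. NPY is a transmitter of sympathetic nerve fibers and is also made in islet cells. PYY in mouse islets occurs in several endocrine cell types, and PP is the hormone of the PP cells (γ-cells). The Y1 receptor is encoded by *Npy1r*, and the others by *Npy2r*, *Npy4r*, *Npy5r* and *Npy6r*.

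In build GRCm38, *Npy* (Entrez 109648) lies on chromosome 6 from 49822710 to 49829507 on the plus strand. *Ppy* (Entrez 19064, 102099931 to 102101300) and *Pyy* (Entrez 217212) are neighbors on the minus strand of chromosome 11, with 5356 bases between them in RefSeq. *Npy1r* (Entrez 18166) lies on chromosome 8 from 66697116 to 66706800 on the plus strand, 9054 bases from *Npy5r*. The *Pyy* row of the table extends from 102106676 to 102157702, well beyond the RefSeq gene, which ends at 102107832. It holds 1 transcript that the authors' pipeline named as not annotated, and 6 other RefSeq genes touch the added stretch, so fragments outside the RefSeq gene may enter its value. The *Ppy* row also holds 1 such transcript.

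The 150 bases before the RefSeq start of the 3 peptide genes (GRCm38.p6, read on the gene's strand) are shown because these genes were lower together on HFD. *Pyy* has a second RefSeq start, whose window (102107777 to 102107926) overlaps the one shown and also holds an E-box. Capitals mark the motif found in each, and positions count back from -1, the last base before the start.
*Npy*, chr6:49822560-49822709, plus strand: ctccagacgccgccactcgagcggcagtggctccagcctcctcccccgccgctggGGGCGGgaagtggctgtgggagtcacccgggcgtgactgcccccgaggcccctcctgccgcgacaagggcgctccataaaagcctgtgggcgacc
*Pyy*, chr11:102107833-102107982, minus strand: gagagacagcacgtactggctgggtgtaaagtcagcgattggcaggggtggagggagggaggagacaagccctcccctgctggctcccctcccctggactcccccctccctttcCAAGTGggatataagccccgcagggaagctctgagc
*Ppy*, chr11:102101320-102101469, minus strand: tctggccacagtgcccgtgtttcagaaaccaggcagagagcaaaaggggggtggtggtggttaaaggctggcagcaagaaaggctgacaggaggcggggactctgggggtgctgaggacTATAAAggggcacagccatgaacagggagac
The *Npy* window holds a GC box (GGGCGG) at -95, a sequence found on either strand in 28.6% of 32851 windows of the same length. The *Pyy* window holds an E-box (CANNTG) at -36, as do 47.7% of all windows, and the *Ppy* window a TATA box (TATAAA) at -31, as do 7.57%. Of the motifs searched, which are those named here, none was shared by the 3 windows, and near matches were not sought. None held the CRE core TGACG (13.3% of windows) or the AP-1 site TGANTCA (4.24%), which says only that these letters are not in these windows.

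The islet and liver genes followed the tissue labels. *Ins2* ranged from 394273 to 707231 FPKM (fragments scaled to transcript length and to the library's total) in islets and reached at most 2467 in liver, while *Alb*, the hepatocyte gene of albumin, was at most 48.8 in islets and at least 16734 in liver. *Ins1* and *Ins2* together took between 53.7% and 75.1% of the FPKM of an islet library. The 9 acinar markers summed to 3359 to 77011 FPKM in CD and 2542 to 30297 in HFD islets, so exocrine RNA varied widely between libraries of each diet. It also differed between diets within weeks. The sums were 31946.5 to 77011 in CD and 6076 to 30297 in HFD at week 12. At week 16 they were 14567 to 27717 and 3454 to 10897. At weeks 4, 8, 20 and 24 they overlapped, with 3359 to 9217 in CD and 8256 to 21527 in HFD at week 20. Read depth was not used here, and the counting error of single values is unknown.

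In CD islets *Ppy* and *Pyy* were among the most abundant transcripts, ranking 11th and 19th of 20155 genes by mean FPKM over 24 libraries, and in HFD islets 13th and 30th. *Npy* ranked 5322nd in CD and 9843rd in HFD islets, and *Npy1r* ranked 13395th and 13765th. Per length of transcript, *Ppy* averaged 3056 FPKM in CD islets, *Pyy* 1645, *Npy* 10.1 and *Npy1r* 0.315. The mean in HFD islets was 1769 for *Ppy*, 850 for *Pyy*, 2.64 for *Npy* and 0.189 for *Npy1r*.

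*Npy* was lower in HFD than in CD islets on average at all 6 weeks, and the gap widened from week 4 to week 20. At week 4 the CD mice had 10.01, 14.78, 15.22 and 25.08 FPKM and the HFD mice 8.18, 7.36, 6.47 and 12.43, so the ranges overlapped. At week 8 the values were 11.31, 12.27, 8.12 and 9.58 in CD and 4.70, 3.92, 3.51 and 4.01 in HFD. From this week on every HFD mouse was below every CD mouse. How many of all genes were separated in this way was not counted, here or for the other members. At week 12 CD mice had 9.25, 9.92, 5.54 and 5.15 FPKM and HFD mice 0.49, 0.87, 2.80 and 1.70. At week 16 the values were 11.84, 4.76, 11.63 and 10.02 in CD and 0.15, 0.59, 1.03 and 1.57 in HFD. The CD group thus had a single low mouse (CD403), while 2 of the 4 HFD mice were under 1 FPKM. At week 20 CD mice had 9.13, 8.39, 9.0 and 18.29 FPKM and HFD mice 1.2, 0.56, 0.07 and 0.49. At week 24 the values were 10.91, 4.96, 3.93 and 3.53 in CD and 0.22, 0, 0.35 and 0.73 in HFD, where *Npy* was listed at 0 in mouse HFD614. All 24 CD islet libraries had at least 1 FPKM of *Npy*, compared with 13 of 24 HFD libraries.

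Expressed as a share of the CD mean, the HFD mean of *Npy* was 52.9%, 39.1%, 19.6%, 8.73%, 5.18% and 5.57% in the 6 weeks in order. In CD islets the mean was highest at week 4 (16.3 ± 6.33 FPKM, SD, n = 4) and lowest at week 24 (5.83 ± 3.44), and in HFD islets it went from 8.61 ± 2.64 to 0.325 ± 0.306. On the log2(FPKM + 1) scale, which understates changes of low values, the HFD minus CD values in the same order were -0.81, -1.16, -1.82, -2.52, -2.93 and -2.28, with a mean of -1.92. With a pseudocount of 0.1 in place of 1 the mean was -2.76, and week 24 moved from -2.28 to -4.01. In the order of the 12 group means, 1 of 11 steps between neighbors exceeded the larger SD of the pair, from HFD week 8 (4.04 FPKM) to HFD week 12 (1.46). In whole islets, fewer cells or fibers that make a transcript and less of it per cell cannot be told apart.

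**Figure D1:**
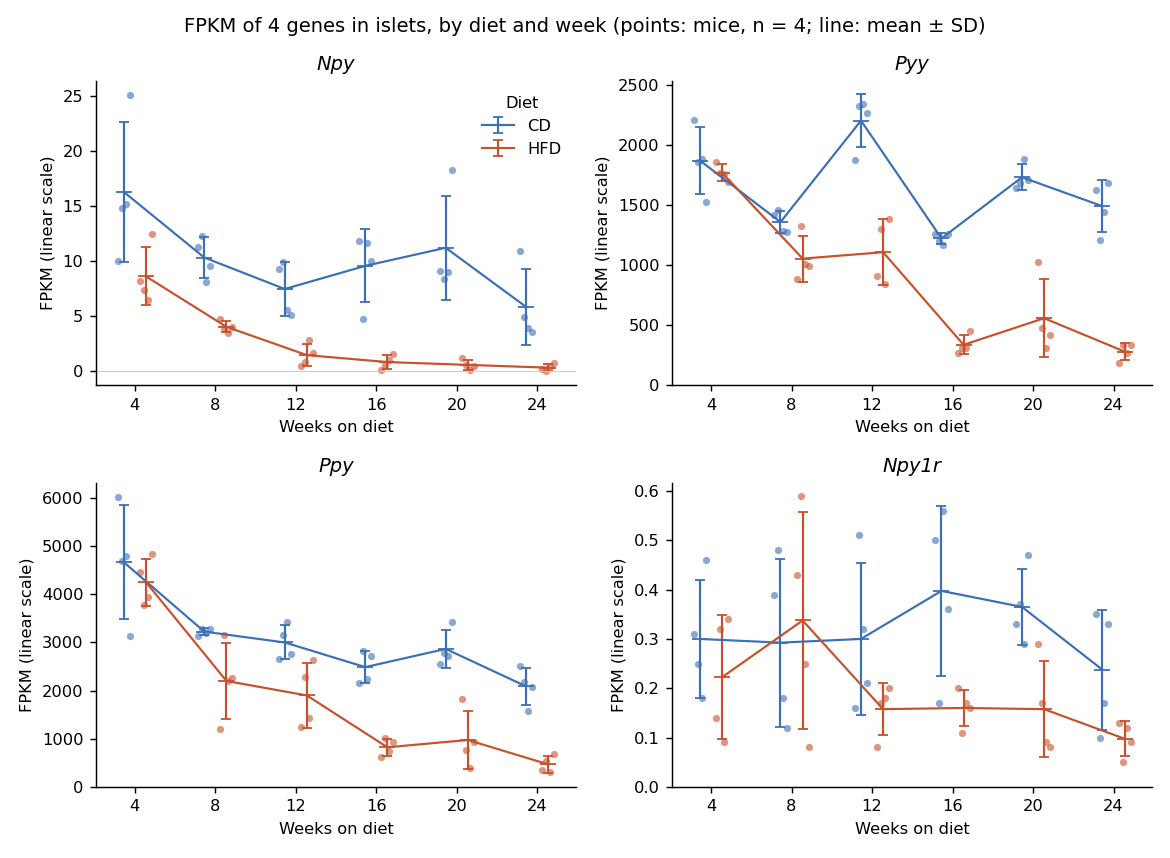
FPKM (vertical axes, linear) of *Npy*, *Pyy*, *Ppy* and *Npy1r* in islets against weeks on diet, with 1 point per mouse and the mean ± SD of 4 CD (blue) or 4 HFD (red) mice. The diets overlap at week 4 in all panels. From week 12 every HFD mouse lies below every CD mouse for *Npy*, *Pyy* and *Ppy*, a separation not counted over all genes. *Npy1r* stays under 0.6 FPKM and overlaps at every week.

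*Pyy*, the gene of peptide YY, did not pass the test at weeks 4 and 8 and fell on HFD at weeks 12, 16, 20 and 24. At week 4 the CD mice had 2205, 1859, 1883 and 1528 FPKM and the HFD mice 1857, 1765, 1758 and 1688. At week 8 the values were 1417, 1454, 1282 and 1277 in CD and 885, 1328, 1005 and 995 in HFD. Only mouse HFD212 reached the CD range at that week. At week 12 CD mice had 1878, 2319, 2340.2 and 2269 FPKM and HFD mice 905, 1297, 839 and 1383. At week 16 the values were 1257, 1203, 1166 and 1259 in CD and 269, 309, 312 and 450 in HFD. The CD mice differed little (SD 45.0), and the highest HFD mouse was far below them. At week 20 CD mice had 1642, 1685, 1885 and 1709 FPKM and HFD mice 1028, 477, 305 and 417, with HFD511 standing above the other HFD mice. At week 24 the values were 1626, 1206, 1439 and 1686 in CD and 181, 336, 264 and 335 in HFD.

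The log2 difference of *Pyy*, HFD minus CD, was -0.07 at week 4 and -0.38 at week 8, with limma's adjusted p of 0.867 and 0.0667. Week 12 gave -1.02 ± 0.19 (SE, adjusted p = 0.0352) and week 16 gave -1.89 ± 0.13 (adjusted p = 3.66e-05). Week 20 gave -1.79 ± 0.32 (adjusted p = 0.0258) and week 24 gave -2.44 ± 0.22 (adjusted p = 0.000646). The HFD mean was 50.2% of the CD mean at week 12 and 18.7% at week 24. The call at week 12 was lost without any 1 of 5 of the 8 libraries (CD306, CD307, CD308, HFD313 or HFD315), with an adjusted p of at most 0.122. That at week 20 was lost without any 1 of 6 (all CD mice, HFD517 or HFD518), with at most 0.0914.

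*Ppy*, the gene of pancreatic polypeptide and the most abundant of the 4, fell on HFD at weeks 16 and 24. At week 4 the CD mice had 6034, 4703, 4798 and 3139.8 FPKM and the HFD mice 4462, 3772, 3949.6 and 4839, with the CD mouse CD106 the lowest of all. At week 8 the values were 3131, 3289.6, 3204 and 3281 in CD and 1195, 3148, 2194 and 2265 in HFD. The CD mice differed little at this week (SD 74.2) and the HFD mice by much more (SD 798). At week 12 CD mice had 2667, 3157, 3423 and 2754 FPKM and HFD mice 1246, 2286, 1429 and 2633. At week 16 the values were 2148, 2825, 2251 and 2727 in CD and 616, 1011, 736 and 923 in HFD. From week 12 on the ranges did not overlap, by a narrow margin at week 12. At week 20 CD mice had 2548, 2779, 2711 and 3428 FPKM and HFD mice 1822, 761, 387 and 922, and HFD511 was again the highest HFD mouse. At week 24 the values were 2509.6, 2178, 1578 and 2080.0 in CD and 345, 535, 300.3 and 680.0 in HFD.

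The log2 difference of *Ppy* in the first 3 weeks sampled was -0.10, -0.63 and -0.72, with limma's adjusted p of 0.894, 0.158 and 0.241. With insulin left out of the total the value at week 12 was -0.43 (adjusted p = 0.182). Week 16 gave -1.61 ± 0.17 (SE, adjusted p = 0.000686), week 20 gave -1.76 ± 0.41 (adjusted p = 0.0531) and week 24 gave -2.22 ± 0.30 (adjusted p = 0.00759). The HFD mean was 91.2% of the CD mean at week 4 and 22.3% at week 24. Without HFD511 the difference at week 20 was -2.14 and passed the test (adjusted p = 0.0064).

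These calls stand against few calls among all genes. At week 4, 0 of 11569 genes passed in limma in either direction (0% lower, 0% higher), and 854 had an unadjusted p under 0.05. At week 8, 4.67% of the genes tested were called lower and 0.602% higher, and at week 12 2.35% and 2.18%. The shares were 5.15% lower and 3.30% higher at week 16, 3.21% and 1.53% at week 20, and 1.73% and 6.57% at week 24. Of *Pyy* and *Ppy*, the 2 members tested here, 1 was called lower at weeks 12 and 20 and both at weeks 16 and 24. The members were chosen with earlier results of these data known, so these calls may not be independent of that choice.

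Averaged over the 6 weeks in one fit of all 48 islet libraries, *Pyy* was lower on HFD by -1.26 on the log2 scale (95% interval -1.44 to -1.09, limma, adjusted p = 2.72e-14) and *Ppy* by -1.18 (-1.43 to -0.93, adjusted p = 1.21e-09), each in 6 of 6 weeks. In this larger comparison 22.0% of 12378 genes were called lower and 16.6% higher. The effect differed between weeks for *Pyy* (F = 18.4, adjusted p = 4.26e-06) and for *Ppy* (F = 7.2, adjusted p = 0.00761), a call made for 4.25% of the genes. *Gcg*, the glucagon gene of α-cells, and *Sst*, the somatostatin gene of δ-cells, fell in the same libraries by a mean of -1.57 and -1.49 (adjusted p = 1.69e-15 and 2.06e-15), whereas *Ins2* was higher by 0.19 (adjusted p = 5.38e-05).

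**Figure D2:**
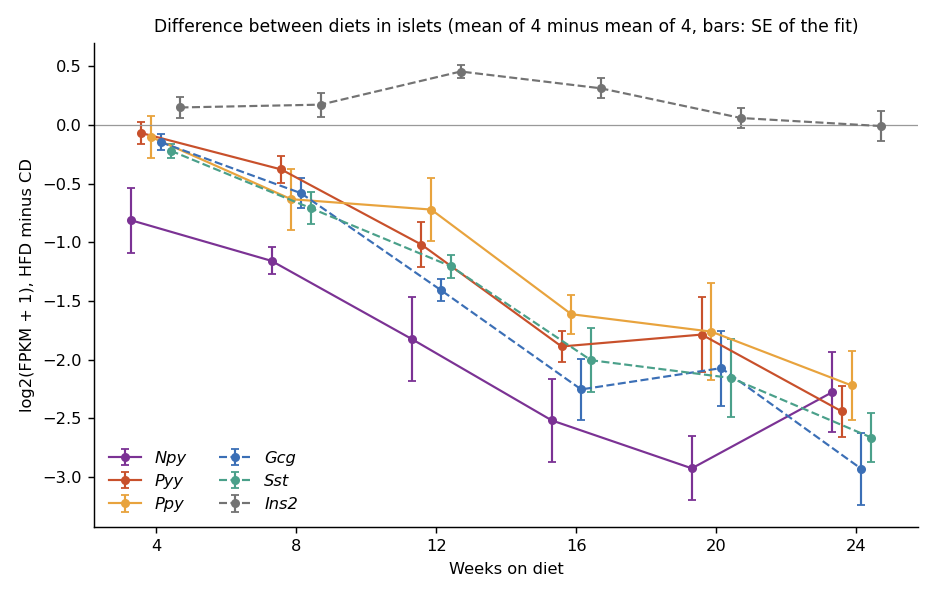
Difference between diets (vertical axis, log2(FPKM + 1), HFD minus CD) against weeks on diet for *Npy*, *Pyy* and *Ppy* (solid lines) and for *Gcg*, *Sst* and *Ins2* (dashed), with the SE of the fit for each week as bars. *Npy* is already at -0.81 at week 4, where *Pyy* and *Ppy* are at -0.07 and -0.10, and *Pyy* and *Ppy* go down to -2.44 and -2.22 at week 24 beside *Gcg* and *Sst*.

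Within CD islets, the levels also differed between weeks for *Npy* (F = 4.40, adjusted p = 0.00504), *Pyy* (F = 4.15, adjusted p = 0.00683) and *Ppy* (F = 3.26, adjusted p = 0.0217), but so did 77.5% of all genes tested, and a call there says nothing particular to these genes. The order of the CD means of *Pyy* followed no trend with time: 2202 ± 218 FPKM at week 12 was the highest and 1221 ± 45.0 at week 16 the lowest. In HFD islets, where 83.8% of genes were called, the weeks also differed for *Pyy* (F = 49.1, adjusted p = 8.06e-14) and *Ppy* (F = 30.2, adjusted p = 6e-11). The F of *Npy* in CD islets did not pass with a pseudocount of 0.1 (F = 1.78, adjusted p = 0.163). In the order of the 12 group means, 4 of 11 steps of *Pyy* and 3 of 11 steps of *Ppy* exceeded the larger SD of the pair, and the other neighbors did not differ beyond their spread. For both genes the lowest 3 groups were HFD at weeks 20, 16 and 24, in that order.

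*Npy1r*, the gene of the Y1 receptor, was detected in every islet library but at 0.10 to 0.56 FPKM in CD and 0.05 to 0.59 in HFD. Its mean in HFD islets was 74.2%, 115%, 52.5%, 40.3%, 43.2% and 41.1% of that in CD islets in the 6 weeks in order. The ranges overlapped at every week, and none of the 11 steps between neighboring group means exceeded the larger SD. The lowest CD and highest HFD values were 0.16 and 0.20 FPKM at week 12 and 0.17 and 0.20 at week 16, with 3 of the 4 CD mice above every HFD mouse in both. *Npy1r* was under the limit of 1 FPKM set for testing. Fitted without that limit, its mean difference over the weeks was -0.15 on the log2(FPKM + 1) scale (limma, adjusted p = 0.00484), lower in 5 of 6 weeks, and no single week passed the test (adjusted p between 0.0758 and 0.865). With a pseudocount of 0.1 this mean was -0.56 (adjusted p = 0.00286), more than 1.5 times as large, as all of its values lie below the pseudocount of 1.

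The other Y receptors were close to 0. Their means did not exceed 0.025 FPKM in any group (*Npy4r*, the main receptor for PP, in CD islets at week 20), and all 5 receptors summed to at most 0.58 FPKM in a CD and 0.59 in an HFD library. The other 4 receptors were not tested.

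Enzymes that cut and amidate peptide precursors were tested beside the peptides. Of 6 genes tested over all weeks, 2 fell and 1 rose, beside 22.0% and 16.6% of all genes, with a median of 0.02 against -0.01 over all genes. *Pcsk1* and *Pcsk2*, which encode the prohormone convertases, fell by 0.17 and 0.10 on the log2 scale (limma, adjusted p = 0.000969 and 0.00365), and *Pcsk1n*, which encodes an inhibitor of PCSK1, rose by 0.21 (adjusted p = 0.000235). *Cpe*, the carboxypeptidase (-0.03, adjusted p = 0.437), and *Pam*, the amidating enzyme (0.07, adjusted p = 0.0767), did not pass. Of the peptidases that can cleave these peptides, 3 of 5 were tested and 0 passed in limma, with 0 at an unadjusted p under 0.05. Among them *Dpp4*, whose product removes the first residues of NPY and PYY, had a difference of -0.02 (95% interval -0.13 to 0.09).

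On the side of signaling, 6 of 9 genes for inhibitory G proteins and the GIRK potassium channels they open were tested, of which 3 fell and 0 rose, with a median of -0.11, beside 22.0% lower and 16.6% higher among all genes. *Gnai1*, a Gi subunit, fell most (-0.48, adjusted p = 3.22e-10), with calls at weeks 12, 16 and 24. *Gnao1*, the Go subunit, fell by 0.16 (adjusted p = 0.000134) and *Kcnj6*, a GIRK subunit, by 0.13 (adjusted p = 0.0493).

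Other islet peptides split between both directions. Of 14 tested, 7 fell and 5 rose, with a median of -0.28, where 22.0% and 16.6% of all genes did. Besides *Gcg* and *Sst*, those lower were *Vip* (-1.84, adjusted p = 3.44e-09), *Gal* (-1.13, adjusted p = 8.06e-10), *Ghrl* (-1.07, adjusted p = 1.16e-08), *Penk* (-0.66, adjusted p = 1.56e-06) and *Tac1* (-0.51, adjusted p = 1.43e-05). *Vip*, *Gal* and *Tac1* encode the neuropeptides VIP, galanin and substance P, and *Ghrl* the hormone ghrelin. *Vip* went from a mean of 12.6 FPKM in CD and 6.82 in HFD islets at week 4 to 5.41 and 0.258 at week 24. Those higher were *Ins1*, *Ins2*, *Iapp*, *Ucn3* and *Cartpt*, by 0.19 to 0.35, the first 4 of which are products of β-cells. *Nmb* and *Pdyn* did not pass.

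**Figure D3:**
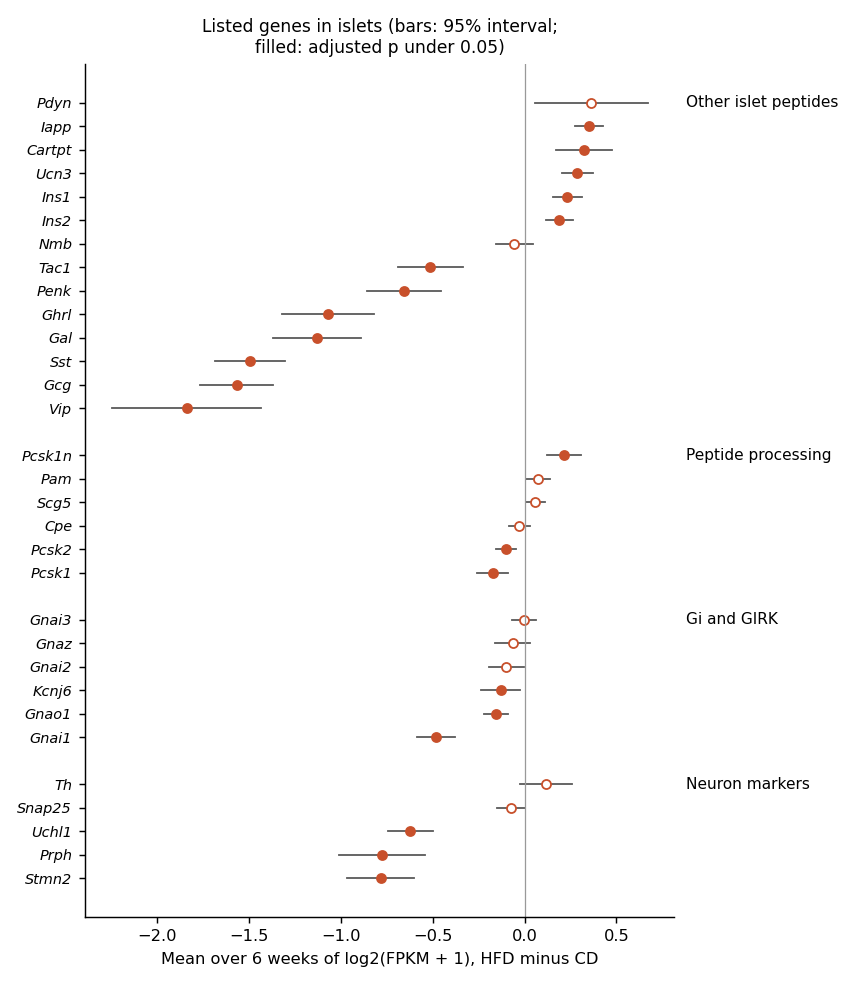
Mean difference over the 6 weeks (horizontal axis, log2(FPKM + 1), HFD minus CD, with its 95% interval) for the tested genes of 4 lists, other islet peptides, peptide processing, Gi and GIRK, and neuron markers. Filled points passed an adjusted p of 0.05. *Vip*, *Gcg*, *Sst*, *Gal* and *Ghrl* lie below -1, and the processing enzymes lie between -0.17 and 0.21.

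Markers of islet cell types are given beside the 22.0% of all genes that fell and the 16.6% that rose. Of 8 α-cell markers 7 fell and 1 rose over all weeks (median -0.94), and all 4 δ-cell markers fell (median -1.09). The summed α-cell markers ranged from 7308 to 16148 FPKM in CD and from 1331 to 15335 in HFD islets, and the δ-cell markers from 2177 to 4844 and from 330.3 to 3996. Among the 4 PP-cell markers other than *Ppy* and *Pyy*, none of the 3 tested fell by as much as these 2 genes. *Etv1* (-0.11, limma, adjusted p = 0.0944) and *Meis2* (-0.07, adjusted p = 0.0523) were each lower on HFD in 5 of 6 weeks but did not pass. *Abcc9* rose (0.24, adjusted p = 5.69e-05). *Vsig1* was not tested and was at most 0.273 FPKM on average in any group. These markers are not restricted to PP cells in islets. Of 9 β-cell markers, 5 rose and 2 fell (median 0.19). Of the other cell types an islet preparation can hold, 3 of 9 acinar, 2 of 5 ductal, 3 of 4 Schwann cell, 2 of 6 endothelial, 1 of 5 stromal and 1 of 4 lymphoid markers tested fell. Those that rose were 1 Schwann cell, 2 endothelial, 3 of 6 mural cell and 2 of 6 macrophage markers. The part of cell composition in the results was not tested.

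Neuron markers were examined beside *Npy*. Of 5 tested over all weeks, 3 fell and 0 rose, with a median of -0.62, where 22.0% of all genes fell. *Stmn2* (-0.78, adjusted p = 5.86e-09), *Prph* (-0.78, adjusted p = 1.44e-06) and *Uchl1* (-0.62, adjusted p = 6.72e-11) were lower in all 6 weeks, and *Th*, the rate-limiting enzyme of catecholamine synthesis (0.12, adjusted p = 0.18), and *Snap25* (-0.07, adjusted p = 0.115) did not pass. *Phox2a*, a transcription factor of sympathetic neurons, had a mean of at most 0.615 FPKM in any group and *Dbh*, the enzyme that makes noradrenaline, of at most 0.415, and neither was tested. Over all weeks the 8 markers summed to 58.5 to 120 FPKM in CD and 54.5 to 103 in HFD islets. Within weeks the sums were apart and lower on HFD at weeks 8 and 16. They were 94 to 107.09 in CD and 85.19 to 88.26 in HFD at week 8, and 102.35 to 116.03 and 84.62 to 97.49 at week 16. Of 5 markers tested at week 16, 3 were called lower and 1 higher, beside 5.15% and 3.30% of all genes. At weeks 4, 12, 20 and 24 the sums overlapped between diets. *Snap25*, *Uchl1* and *Th* made up most of these sums, and β-cells also express *Snap25*. Their part in the values of *Npy* was not tested.

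Ratios within a library do not depend on how libraries are scaled to each other. The ratio of *Pyy* to *Ppy* did not pass the test of a diet difference over the 6 weeks (mean log2 difference -0.09 ± 0.07, SE, permutation within weeks, p = 0.252), and no single week did by exact permutation tests, whose smallest two-sided p for 4 against 4 mice is 0.0286. Its mean in CD and HFD islets was -1.29 ± 0.18 (SD, n = 4) and -1.26 ± 0.19 at week 4, and -0.48 ± 0.32 and -0.70 ± 0.38 at week 24. The ratio of *Pyy* to *Gcg* was higher on HFD in 6 of 6 weeks, by a mean of 0.30 ± 0.07 (SE) on the log2 scale. Its permutation p of 1e-05 is the smallest that 100000 resamples can give, and the value adjusted over 5 ratios is 5e-05. The ratio of *Ppy* to *Gcg* was higher by 0.39 ± 0.11 in 5 of 6 weeks (permutation, adjusted p = 0.00239). At week 12 both of these ratios reached the smallest exact p, with no overlap between diets. Relative to *Sst*, *Pyy* was higher on HFD by 0.23 ± 0.06 (permutation, adjusted p = 0.00075) and *Ppy* by 0.32 ± 0.09 (adjusted p = 0.00213), each in 6 of 6 weeks.

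**Figure D4:**
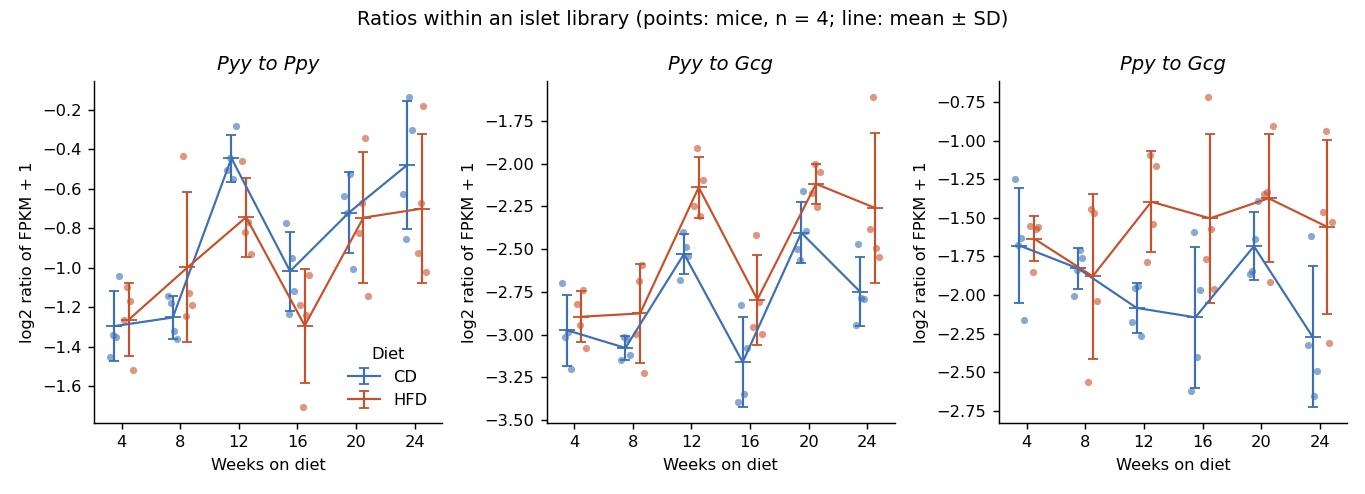
Log2 ratios of FPKM + 1 within an islet library (vertical axes) against weeks on diet for *Pyy* to *Ppy*, *Pyy* to *Gcg* and *Ppy* to *Gcg*, with 1 point per mouse and the mean ± SD of 4 mice per diet. The *Pyy* to *Ppy* ratio overlaps between diets at every week, and the ratios to *Gcg* separate the diets at week 12, with HFD (red) above CD (blue).

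Whether the genes varied together among mice of the same diet and week was examined over 48 libraries after subtraction of each group's mean, for 18 pairs. All members share the scaling of a library. *Pyy* and *Ppy* rose and fell together (Pearson r = 0.80, Spearman rho = 0.66, permutation, adjusted p = 0.00036 and 0.00204), and r was 0.68 without the 2 libraries farthest from the median of *Pyy*. Within HFD libraries r was 0.85 (adjusted p = 0.00414) and within CD libraries 0.53 (permutation, adjusted p = 0.25), 24 libraries each. *Pyy* also went with *Sst* (r = 0.79, rho = 0.60, permutation, adjusted p = 0.00036 and 0.00204) and *Gcg* (r = 0.77, rho = 0.65, adjusted p = 0.0012 and 0.00204). In CD libraries alone these r were 0.18 and 0.53 and neither passed, whereas in HFD libraries alone they were 0.85 and 0.81 and both passed. Whether r differed between diets was not tested, for these or other pairs. HFD511 and HFD517 lay farthest from their group mean in *Pyy* (1.04 and -0.71). Without the 2 libraries farthest from the median of *Pyy*, r was 0.63 with *Sst* and 0.62 with *Gcg*, and both passed. For *Ppy* the relation with *Sst* passed (r = 0.67, rho = 0.44, permutation, adjusted p = 0.0045 and 0.0342) and that with *Gcg* did not (r = 0.50, rho = 0.31, adjusted p = 0.0597 and 0.163). The r of *Ppy* with *Sst* was 0.10 in CD and 0.75 in HFD libraries alone. Without the 2 libraries farthest from the median of *Ppy* it was 0.47 (permutation, adjusted p = 0.0413), and rho of 0.37 no longer passed (adjusted p = 0.0933). No pair with *Ins2* passed, with r between -0.04 and 0.11.

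*Npy* did not pass with *Pyy* (r = 0.18, rho = 0.11, permutation, adjusted p = 0.371 and 0.617) or *Ppy* (r = 0.20, rho = 0.16, adjusted p = 0.306 and 0.492). In CD libraries alone r was -0.21 with *Pyy* and -0.12 with *Ppy*, and in HFD libraries alone 0.39 and 0.40, none of which passed. *Npy* went with *Npy1r* (r = 0.49, rho = 0.50, permutation, adjusted p = 0.00126 and 0.00306), with *Sst* (r = 0.45, rho = 0.41, adjusted p = 0.0045 and 0.027) and with *Gcg* (r = 0.45, rho = 0.39, adjusted p = 0.0101 and 0.0342). Without the 2 farthest libraries r was 0.42 with *Npy1r*, 0.43 with *Sst* and 0.39 with *Gcg*, and rho no longer passed with *Sst* and *Gcg* (both adjusted p = 0.0933, permutation). In CD libraries alone r was 0.42 with *Sst* and 0.32 with *Gcg* and neither passed, and in HFD libraries alone 0.58 and 0.59 and both passed. Within CD and within HFD libraries r with *Npy1r* was 0.59 and 0.36, and neither passed alone (permutation, adjusted p = 0.0502 and 0.0603). Of the other pairs with *Npy1r*, that with *Gcg* passed (r = 0.37, rho = 0.44, permutation, adjusted p = 0.0101 and 0.0103), but not in CD (r = 0.58, adjusted p = 0.0502) or HFD libraries alone (r = 0.31, adjusted p = 0.186). *Npy1r* lies below 1 FPKM with 2 decimals, so that its deviations rest on few distinct values.

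The genes most like each member were sought by the same r, among 11555 genes that reached 1 FPKM in 24 or more libraries. *Npy* was most like *Syt1* (r = 0.74), *Gap43* (0.67), *Stmn2* (0.64), *Tmem71* (0.62) and *Tmem255b* (0.62). *Syt1*, *Gap43* and *Stmn2* encode a synaptic vesicle protein, a growth cone protein and a microtubule regulator of neurons, and their mean FPKM were 1.60, 2.83 and 2.68 in CD and 0.819, 1.41 and 1.18 in HFD islets. Of the listed genes, *Prph* (r = 0.61) and *Vip* (0.60) came close to these, while *Th* (0.19) and *Gal* (0.08) did not. *Sst* and *Gcg* took positions 74 and 78 in the order of likeness to *Npy*, and *Ppy* and *Pyy* positions 1956 and 2331. *Pyy* was most like *Ppy* (0.80), *Sst* (0.79), *Tspan8* (0.78), *Gcg* (0.77) and *Lpl* (0.74). *Ppy* was most like *Tspan8* (0.83), *Pyy* (0.80), *Kcnj12* (0.68), *Sst* (0.67) and *Cyp4f39* (0.67). *Npy1r* was most like *Dbi* (0.73), *Entpd1* (0.69), *S1pr1* (0.69), *Eln* (0.67) and *Thy1* (0.66), among which *S1pr1* is a receptor of endothelial cells and *Eln* encodes elastin. Its median r was 0.47 with 6 endothelial, 0.45 with 4 stromal, 0.42 with 6 mural cell and 0.39 with 6 macrophage markers, beside 0.13 over all other genes. For *Npy* the median r was 0.45 with 5 neuron markers (0.07 to 0.64), 0.41 with 3 δ-cell markers (0.33 to 0.45) and 0.36 with 4 stromal markers, beside 0.05 over all other genes, and for *Pyy* and *Ppy* the highest median was with 3 δ-cell markers (0.68 and 0.57). These likenesses are descriptions over 48 libraries and carry no test.

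**Figure D5:**
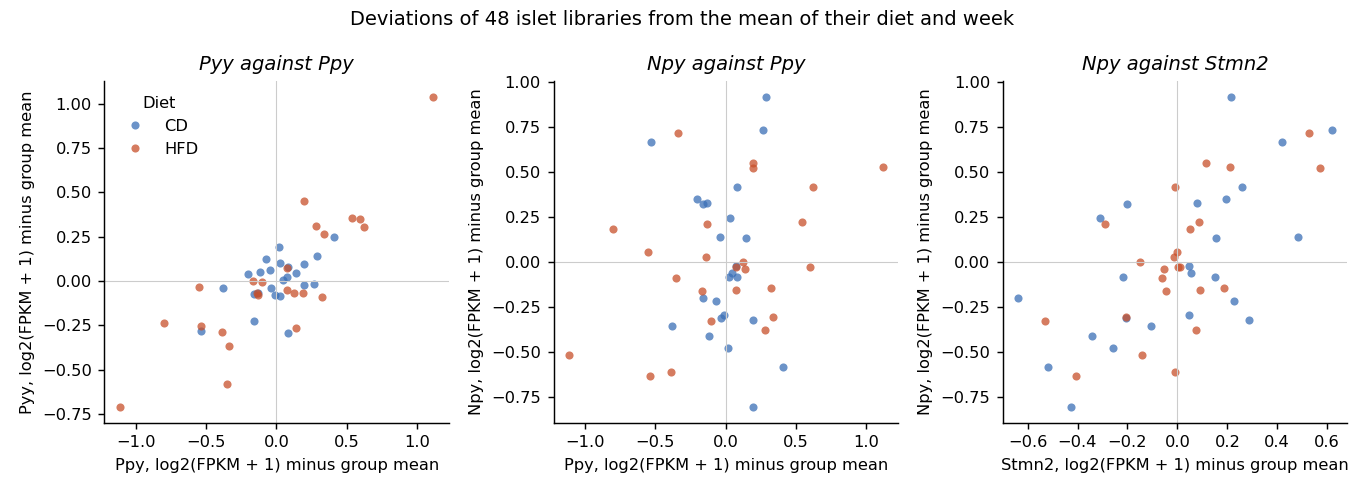
Deviation of each of 48 islet libraries from the mean of its diet and week, in log2(FPKM + 1), for *Pyy* against *Ppy* (r = 0.80), *Npy* against *Ppy* (r = 0.20) and *Npy* against *Stmn2* (r = 0.64), with CD in blue and HFD in red. The point at the upper right of the first panel is HFD511, and the *Npy* points show no clear slope against *Ppy* and a rising one against *Stmn2*.

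In liver the 4 genes were at or near 0. *Npy* was listed at 0 in 38 of 48 livers and reached at most 0.14 FPKM, and *Npy1r* reached at most 0.09. *Ppy* was listed at 0 in 26 and *Pyy* in 31 livers, and 4 livers had at least 1 FPKM of *Ppy* and 2 of *Pyy*. The highest of each was in mouse CD306 at week 12, with 13.3 FPKM of *Ppy* and 6.03 of *Pyy*. In that liver *Ins2* was at 2467, *Gcg* at 28.7, *Sst* at 8.89 and the acinar gene *Cela2a* at 20.1 FPKM, against medians over all livers of 7.23, 0.07, 0 and 0.625. The diets were not compared in liver.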

How the data were processed

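The authors selected poly(A) RNA, used random hexamers for cDNA and read the libraries on the BGISEQ-500 platform. The submitters' processing notes name HISAT2 2.0.4, Bowtie2 2.2.5, RSEM 1.1.12, DESeq2 and the build GRCm38.p5, without their roles. The deposited values are FPKM per library, rounded by the authors to 2 decimals, and 1835 genes have none. Columns with the authors' own comparisons (ratios, p-values and q-values), group means, clusters and modules were not used.

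Mice were assigned to diet and week by their labels. FPKM were transformed to log2(FPKM + 1) in R 4.3.3, and limma 3.58.1 (trend and robust options) compared 4 HFD with 4 CD libraries per week, keeping genes that reached 1 FPKM in 4 or more of the 8. A second fit held all 48 islet libraries in 12 groups, with the same limit over the 48. P-values were adjusted by Benjamini-Hochberg over all genes tested, with 0.05 as the threshold. Correlations and ratios used permutations within diet and week or within week (100000 resamples, two-sided) in numpy 2.4.6 and scipy 1.17.1 (Python 3.11.15). Genes named are the 4 members, those of the fixed lists, and the 5 most like each member. On simulated data for week 4, 200 genes detected in most libraries were given a large shift of a single size. Of these 99% were recovered, with 11 false calls (11616 genes). Smaller shifts were not simulated, so this gives no power for them. Noise was drawn independently for each gene, with a single spread over all groups. In the real libraries the spread differs between groups, so the 99% need not hold there. Promoters are from RefSeq, all 4 members matched. The members and lists were chosen with earlier results of these data known. Ratios were added after the data were seen. The values of 1 listed marker are not reported here.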

Additional observations from a re-analysis of the deposited data

Results flagged for a closer look

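The effect of HFD differed between weeks for *Pyy* (F = 18.4) and for *Ppy* (F = 7.2) by the interaction test given above.

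Of 82 groups of 4 libraries with any variation, 14 held a library set apart from the other 3 by a gap above Dixon's critical value, which chance alone gives in about 1 of 20 groups. In islets these were *Npy* in CD507 at week 20 (18.29 FPKM, next 9.13) and *Pyy* in CD304 at week 12 (1878, next 2269). The others were livers. *Ppy* stood apart in CD306 at week 12 (13.3), CD407 at week 16 (2.23) and HFD617 at week 24 (1.79), and *Pyy* in the same 3 livers (6.03, 0.76 and 1.01). In these livers *Ins2* was at 2467, 1738 and 272 FPKM, beside a median of 7.23 over 48 livers. *Pyy* was also alone above 0 in HFD211 (0.09) and HFD411 (0.17), *Npy* in CD407 (0.07), HFD315 (0.07) and HFD617 (0.14), and *Npy1r* reached 0.07 in CD501. In 6 of the 14 groups the other 3 libraries were at 0, where any value above 0 stands apart.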

How the results depend on the processing

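Of 1001 recomputed values, most of them with a library left out, 929 were counted as unchanged. A tested value counted if it kept its direction and side of the threshold, and an untested one if it stayed within the spread. Counts of called genes were allowed a limited factor. A correlation that had not passed counted while it still did not pass, even if its sign turned. This was so for *Npy* with *Pyy* (-0.21) and with *Ppy* (-0.12) in CD libraries alone. With a pseudocount of 0.1 the mean difference of *Npy1r* was -0.56, with or without the filter. The change of *Npy* over weeks in CD islets was then not called (F = 1.78 with the filter, 1.87 without). With insulin left out of the total, week 4 was -0.02 for *Pyy* and -0.05 for *Ppy*. *Ppy* at week 20 passed with insulin left out of the total (-1.83), in the fit of all 12 groups (-1.76) and with no filter and a pseudocount of 0.1 (-1.76). Without subtraction of group means, r also holds the differences between diets and weeks. *Npy* was chosen by its difference between diets, so r of 0.83 with *Pyy* and 0.85 with *Ppy* in this setting are descriptions without a test. *Pyy* and *Npy1r* (0.50) and *Ppy* and *Npy1r* (0.47) also passed there, with the differences between groups included. Calls for *Pyy* with *Ppy* were lost in CD libraries alone (0.53), and for *Npy* with *Npy1r* in CD (0.59) and HFD alone (0.36).

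With each library left out in turn, the mean difference ranged from -1.32 to -1.23 for *Pyy*, -1.24 to -1.11 for *Ppy* and -0.16 to -0.13 for *Npy1r*. By week *Pyy* ranged from -0.16 to 0.01, -0.50 to -0.30, -1.14 to -0.90, -2.04 to -1.79, -2.13 to -1.55 and -2.55 to -2.25, and *Ppy* from -0.28 to 0.03, -0.83 to -0.37, -0.90 to -0.54, -1.72 to -1.48, -2.14 to -1.39 and -2.43 to -2.04. At week 4 the sign of both turned without CD101 (0.0145 for *Pyy* and 0.0335 for *Ppy*), and at week 8 *Pyy* passed without HFD212 (-0.50).

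Of 44 listed peptide, receptor, enzyme and G protein genes with values, 25 were tested and 3 called at week 8 (all genes 4.67% lower, 0.602% higher), but 1 with no filter, 1 with median ratio scaling, 5 in the fit of all groups and between 1 and 11 with a library left out. At week 16, 11 of 26 were called, beside 5.15% and 3.30% of all genes (17 with no filter and a pseudocount of 0.1, 7 to 12 with a library left out), and at week 20 5 of 25, beside 3.21% and 1.53% (10 with insulin left out, 1 to 10 with a library left out). The cause of these differences was not tested. With insulin left out, the median log2 difference of all genes was 0.26 at week 12 and 0.19 at week 16, beside 0.01 at both.

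The FPKM carry no read counts, so values under 1 FPKM, which include every Y receptor and *Npy* in 11 HFD libraries, have an unknown counting error. HFD and CD mice were different animals, so the diets were compared without pairing. Islets and liver of the same mouse were not compared by a paired test.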
